A study of Mus musculus with 4 samples.

Results

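The genes described here encode the machinery that carries proteins into mitochondria. They were taken by name: every symbol starting with Timm or Tomm, together with Samm50, Mtx1, Mtx2, Pam16 and Grpel1. The annotation held 32 such symbols, of which 30 had a row among the 21552 genes counted. Tomm20, the best known import receptor, and Tomm6os, a transcript antisense to Tomm6, had no row under their identifier and were not analysed here. After the filter on low counts 28 of the 30 were tested. Timm8a2 had 0, 0, 1 and 0 reads and Tomm20l had 1, 0, 2 and 1 reads in infarcted replicates 1 and 2 and uninjured replicates 1 and 2, respectively, too few for a test.

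The libraries came from hearts of C57BL/6 mice. The infarcted group held the remote area, the myocardium away from the infarct, of 2 mice whose left anterior descending coronary artery had been tied off permanently, and the uninjured group held hearts of 2 mice, both labelled as day 7. All 4 libraries carry the remote area label, and the labels name no batch. Polyadenylated RNA was sequenced, with 35715115 to 70885393 counts per library. Genes encoded in mitochondrial DNA made up 36.7% and 42.0% of all counts after infarction and 41.4% and 48.4% without injury.

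Nearly all mitochondrial proteins are made in the cytosol and enter the organelle through translocases. The TOM complex of the outer membrane receives and passes them, the SAM complex folds beta-barrel proteins into the outer membrane, and small TIM chaperones escort hydrophobic clients across the intermembrane space. In the inner membrane TIM22 inserts carrier proteins, whereas TIM23 and its motor pull proteins with a presequence into the matrix. Cardiomyocytes are packed with mitochondria and depend on this supply.

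The sequence just upstream of the annotated starts is shown for 5 of the genes that carry marked letters there. Of these, 4 were called lower in infarcted hearts and Tomm70a was not. Tomm5, Samm50 and Timm13, also called lower, carry none of the marked letters and are not shown. Each stretch holds the 250 bases before the start from RefSeq on GRCm38.p6, 5′ to 3′ on the strand of the gene. Capitals mark matches on either strand to CCGGAAG, the core of sites for ETS factors, to AAGGTCA, the site of estrogen-related receptors, to the NRF1 site with its middle base left free, and to AAGATGGCG, a YY1 site.
Timm8b (chr9:50603651-50603900, plus strand): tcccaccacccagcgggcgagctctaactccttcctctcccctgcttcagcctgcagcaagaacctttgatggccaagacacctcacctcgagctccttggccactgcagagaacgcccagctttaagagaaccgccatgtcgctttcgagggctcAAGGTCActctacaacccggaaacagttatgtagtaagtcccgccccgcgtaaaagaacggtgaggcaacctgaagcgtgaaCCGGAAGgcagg
Timm23 (chr14:32201892-32202141, minus strand): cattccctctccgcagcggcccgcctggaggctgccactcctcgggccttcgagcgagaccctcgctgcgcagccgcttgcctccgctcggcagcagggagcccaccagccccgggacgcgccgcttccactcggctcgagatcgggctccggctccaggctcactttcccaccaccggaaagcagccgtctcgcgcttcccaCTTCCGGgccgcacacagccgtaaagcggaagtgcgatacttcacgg
Mtx2 (chr2:74825562-74825811, plus strand): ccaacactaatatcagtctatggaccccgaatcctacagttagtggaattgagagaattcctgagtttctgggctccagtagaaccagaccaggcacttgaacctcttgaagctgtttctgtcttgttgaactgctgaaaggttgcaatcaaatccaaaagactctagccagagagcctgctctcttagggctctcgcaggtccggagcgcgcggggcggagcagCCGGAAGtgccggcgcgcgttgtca
Pam16 (chr16:4624947-4625196, minus strand): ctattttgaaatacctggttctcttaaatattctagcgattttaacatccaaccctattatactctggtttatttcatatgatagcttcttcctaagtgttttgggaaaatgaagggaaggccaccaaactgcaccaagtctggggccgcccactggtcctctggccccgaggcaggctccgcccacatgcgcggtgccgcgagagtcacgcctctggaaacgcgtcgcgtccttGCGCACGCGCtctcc
Tomm70a (chr16:57121464-57121713, plus strand): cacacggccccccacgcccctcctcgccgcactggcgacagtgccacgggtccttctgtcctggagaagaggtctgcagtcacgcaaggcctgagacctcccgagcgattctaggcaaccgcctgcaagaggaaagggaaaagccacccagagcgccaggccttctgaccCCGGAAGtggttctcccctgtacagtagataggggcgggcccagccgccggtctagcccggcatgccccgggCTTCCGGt

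Timm8b carried the ETS letters 12 bases and the receptor letters 94 bases before its start, and Timm23 and Mtx2 carried the ETS letters 47 and 25 bases before theirs. Pam16 carried the relaxed NRF1 letters 15 bases before the start. Tomm70a held the ETS letters at 80 and 8 bases, although its level differed least between groups. A window from 250 bases before to 50 bases after the start was found for 25 of the 28 tested genes. CCGGAAG occurred in 12 of the 25 (48.0%), against 18.7% of 10737 tested genes with a window and 8.86% of all 32851 windows. AAGGTCA occurred in 3 (12%, against 3.99% of tested genes and 4.72% of all windows), and AAGATGGCG in 2 (8.0%, against 3.28% and 1.40%). The relaxed NRF1 site occurred in 2 (8.0%, against 10.8% and 4.603%) and the strict NRF1 site in 0 (against 2.17% and 0.97%). GGGCGG, the letters of SP1 sites, which are not capitalised above, occurred in 15 (60.0%, against 67.1% and 35.7%), Pam16 among them. Different motifs were counted separately even where they overlapped. Of the 12 genes with the ETS letters 8 were called lower in infarcted hearts, with a median log2 fold change of -0.62, and of the 13 without them 10 were, with a median of -0.66. These matches describe the letters and were not tested.

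Infarcted hearts carried less mRNA for most of the import machinery. Of the 28 genes tested, 21 were lower and 0 higher at an adjusted p below 0.05 in edgeR's quasi-likelihood test, against 14.6% of all 13905 genes called lower and 18.3% called higher. The median log2 fold change, infarcted over uninjured, was -0.66, with quartiles of -0.80 and -0.58, beside 0.02 over all genes. Both infarcted libraries lay below both uninjured ones for 27 of the 28, against 33.8% of all genes. Added over the 30 genes, CPM (counts scaled to library size) came to 961 and 914 after infarction and to 1316 and 1656 without injury, replicate 1 first. Standard errors of the log2 fold changes ran from 0.18 to 0.25. At an unadjusted p below 0.05 the count was 24, against 42.8% of all genes. The fold change was below 0 for 27, against 49.0% of all genes. DESeq2 also called 21 lower (14.9% of all genes) and limma-voom 19 (13.2%), whereas on library totals, without TMM, 4 were (5.65%).

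The number of calls fell without uninjured replicate 2, which held the highest level of 26 of the 28 genes. Its median log2 difference from uninjured replicate 1 was 0.37 over the 28, beside 0.04 over the whole table, where 54.8% of genes were higher in it. Timm29 and Tomm70a were the exceptions. Without that library edgeR called 0 of the 28 lower (0.056% of all genes), with 15 at an unadjusted p below 0.05 (30.1% of all genes), and DESeq2 called 1, Tomm5 (4.21% of all genes). The median was then -0.48 and all 28 values were still below 0. Leaving out uninjured replicate 1 instead also left 1 uninjured library, and the median was then -0.83. The size of the fall in infarcted hearts thus depended on which uninjured library was left out. Without infarcted replicate 2 edgeR called 7 (8.83% of all genes).

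**Figure D1:**
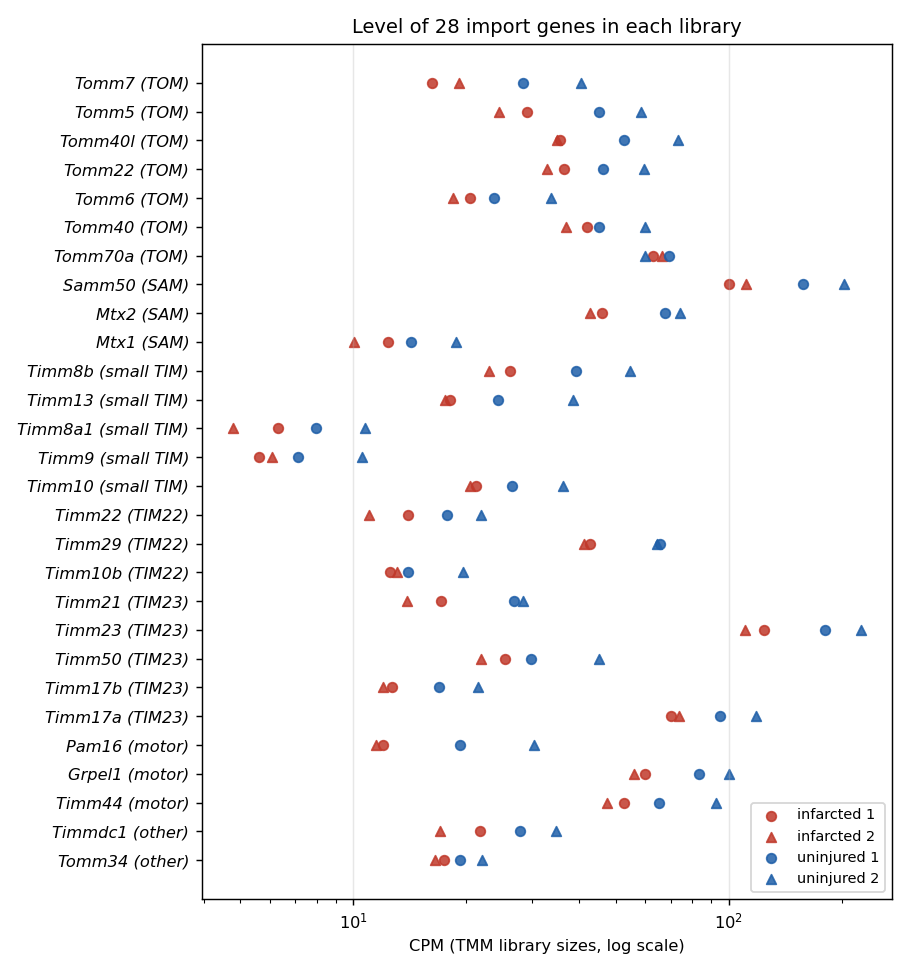
Level of the 28 tested import genes in each library, in CPM on TMM-scaled library sizes (log axis), grouped by complex, with circles for replicate 1 and triangles for replicate 2. Red infarcted points lie left of both blue uninjured points for every gene but Tomm70a, and uninjured replicate 2 is the rightmost point for most genes.

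Of the 7 TOM genes tested 4 were lower, with a median log2 fold change of -0.61. Tomm7, a small subunit that tunes assembly of the complex, measured 16.2 and 19.1 CPM after infarction and 28.4 and 40.4 CPM without injury. Its log2 fold change was -0.96 ± 0.22 (SE, adjusted p = 0.00497). The groups were well apart, although the uninjured libraries also differed from each other. Tomm5, another small subunit beside the pore, measured 29.0 and 24.4 CPM against 45.2 and 58.4 CPM, a log2 fold change of -0.96 ± 0.20 (adjusted p = 0.00317). It had the smallest adjusted p of the family. Tomm40l, a relative of the pore protein Tomm40, measured 35.5 and 34.9 CPM against 52.7 and 73.3 CPM, with a log2 fold change of -0.84 ± 0.20 (adjusted p = 0.00675). Its infarcted libraries were nearly equal. Tomm22, the central receptor, fell by 0.61 on the log2 scale (adjusted p = 0.0273).

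The other 3 TOM genes did not pass. Tomm6 had a log2 fold change of -0.56 and the pore gene Tomm40 one of -0.41, with adjusted p = 0.0619 and 0.130. Tomm70a encodes the receptor for carrier proteins that arrive with cytosolic chaperones. Its level was 63.0 and 66.4 CPM after infarction and 69.3 and 59.9 CPM without injury, and it was the only gene of the 28 whose groups overlapped. The log2 fold change was 0.00 with a 95% interval from -0.39 to 0.40. Its direction depended on the scale: it was 0.35 on library totals and -0.36 with the trend on transcript length removed, neither of them called.

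In the SAM complex 2 of 3 genes were lower. Samm50, the channel that inserts beta-barrels, measured 100.5 and 110.9 CPM after infarction and 158 and 203 CPM without injury, a log2 fold change of -0.77 ± 0.21 (adjusted p = 0.0120). Mtx2, a metaxin on the cytosolic face of the complex, measured 45.9 and 42.8 CPM against 67.7 and 74.3 CPM, a log2 fold change of -0.68 ± 0.18 (adjusted p = 0.0121). Replicates of Mtx2 lay close together in both groups. Mtx1, its partner, had a log2 fold change of -0.56 and did not pass (adjusted p = 0.0667).

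Among the small TIM chaperones 4 of 5 genes were lower, with a median of -0.75. Timm8b, a relative of Timm8a1, measured 26.2 and 23.0 CPM after infarction and 39.1 and 54.6 CPM without injury. That gave a log2 fold change of -0.93 ± 0.21 (adjusted p = 0.00451), so about 52.5% of the uninjured level remained. Timm13 measured 18.1 and 17.6 CPM against 24.3 and 38.5 CPM, a log2 fold change of -0.82 ± 0.23 (adjusted p = 0.0158). Its uninjured replicates differed by 0.66 on the log2 scale. Timm8a1, the mouse counterpart of the gene mutated in human deafness-dystonia syndrome, fell by 0.75 (adjusted p = 0.0324) and Timm10 by 0.59 (adjusted p = 0.0431), whereas Timm9 had -0.60 without passing (adjusted p = 0.0784).

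All 5 TIM23 genes were lower, with a median of -0.66. Timm23, the channel itself, had the highest level per transcript length of the family, 173 CPM per kilobase in uninjured hearts. It measured 124 and 111 CPM after infarction and 180 and 225 CPM without injury, a log2 fold change of -0.79 ± 0.21 (adjusted p = 0.0106). In the annotation 6 other loci are near-identical to it, and reads shared with them leave its level uncertain; Timm17a and Timm8a1 have 1 such copy each. Timm21, which links TIM23 to the TOM complex and the respiratory chain, measured 17.1 and 13.9 CPM against 26.8 and 28.3 CPM, a log2 fold change of -0.83 ± 0.20 (adjusted p = 0.00669). Its uninjured replicates differed by 0.08 on the log2 scale, and without uninjured replicate 2 its log2 fold change was -0.80. Its groups were apart, as they were for 27 of the 28 genes. Timm50, the presequence receptor, and the channel partners Timm17b and Timm17a fell by 0.66, 0.63 and 0.56.

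The motor genes were lower in 3 of 3 cases. Pam16, a J-like protein that restrains the motor, had the lowest fold change of the family: 12.02 and 11.5 CPM after infarction against 19.2 and 30.3 CPM without injury, a log2 fold change of -1.08 ± 0.23 (adjusted p = 0.00385). Infarcted hearts thus held 47.5% of the uninjured level. The uninjured replicates of Pam16 differed by 0.66 on the log2 scale. Without uninjured replicate 2 its log2 fold change was -0.72, and Timm21 (-0.80) and Tomm5 (-0.77) lay lower. Grpel1, the nucleotide exchange factor of the motor's Hsp70, fell by 0.67 and Timm44, the anchor that ties that Hsp70 to the channel, by 0.66. For TIM22, Timm29 and Timm22 fell by 0.63 and 0.66, and Timm10b, with -0.39, did not pass (adjusted p = 0.183). The remaining pair are no translocase subunits by function: Timmdc1, a complex I assembly factor, fell by 0.69, and Tomm34, a cytosolic cochaperone, had -0.28 (adjusted p = 0.293).

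**Figure D2:**
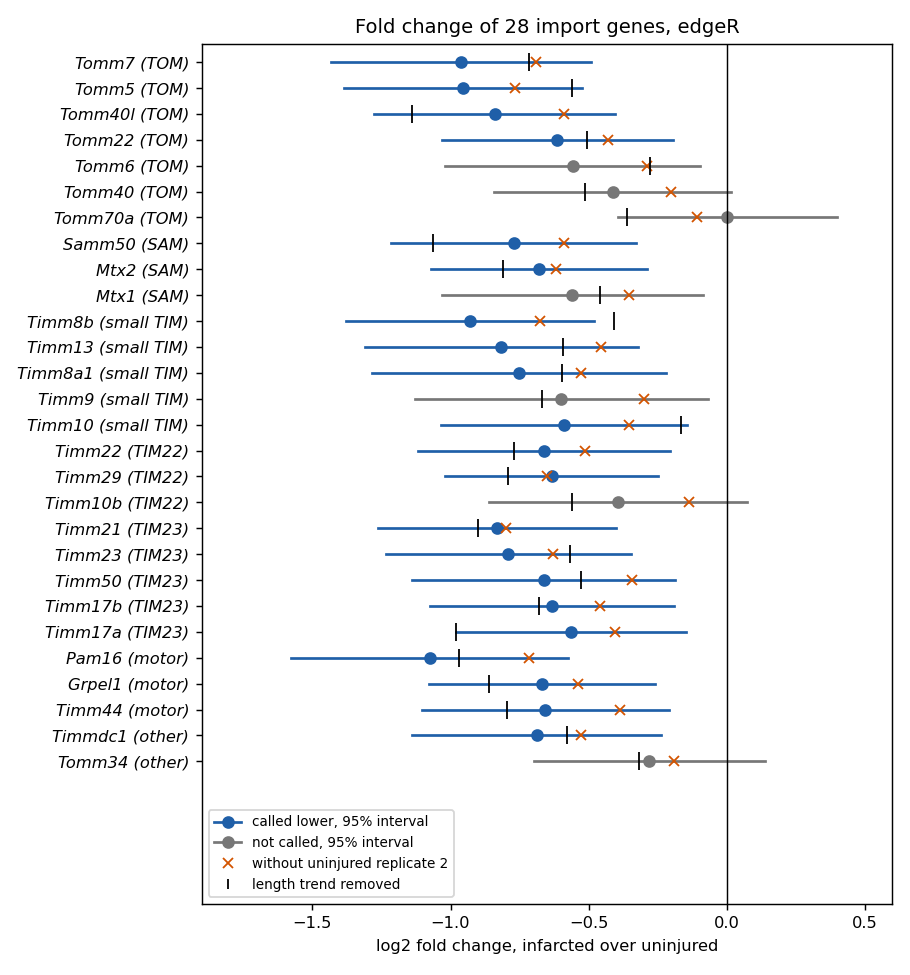
Log2 fold change, infarcted over uninjured, of the 28 tested import genes with 95% intervals from edgeR (blue for called lower, grey for not called). Orange crosses are the values without uninjured replicate 2, most of them closer to 0, and black ticks those with the trend on transcript length removed. Pam16 lies furthest left at -1.08 and Tomm70a at 0.00.

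Per length, Timm23 was followed in uninjured hearts by Timm8b with 90.4, Tomm5 with 70.2, Timm10 with 45.5 and Samm50 with 39.0 CPM per kilobase. Timm9 was lowest of the genes tested, with 3.45 CPM per kilobase. These levels use the longest annotated transcript, which need not be the form made in the heart.

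Ratios between members were compared within libraries, which removes the scale of each library. Over 7 pairs, with 2 libraries a group, the smallest two-sided p of the exact permutation test is 0.333 (0.583 adjusted over the pairs), so none could pass. Tomm40l relative to Tomm40, on the log2 scale of CPM per kilobase, was -1.01 and -0.85 after infarction and -0.54 and -0.48 without injury, a difference of -0.42 without overlap (exact p = 0.333). The Timm17a to Timm17b ratio was 0.93 ± 0.11 (SD, n = 2) against 0.86 ± 0.02 (SD, n = 2), a difference of 0.07 within the spread (exact p = 0.667). Timm8a1 to Timm8b and Timm10b to Timm10 differed by 0.16 and 0.20 without overlap, and Mtx1 to Mtx2 by 0.12 with overlap. After its values had been seen, Tomm70a was also set against Tomm22 and Tomm40: the log2 ratios were 0.61 and 0.41 higher in infarcted hearts, the first without overlap. Such ratios keep any trend on transcript length, and Tomm70a has 5964 nt against 1569 nt for Tomm22 and 2766 nt for Tomm40. With that trend removed the log2 fold changes lay closer together, at -0.36 for Tomm70a and -0.51 for both Tomm22 and Tomm40.

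**Figure D3:**
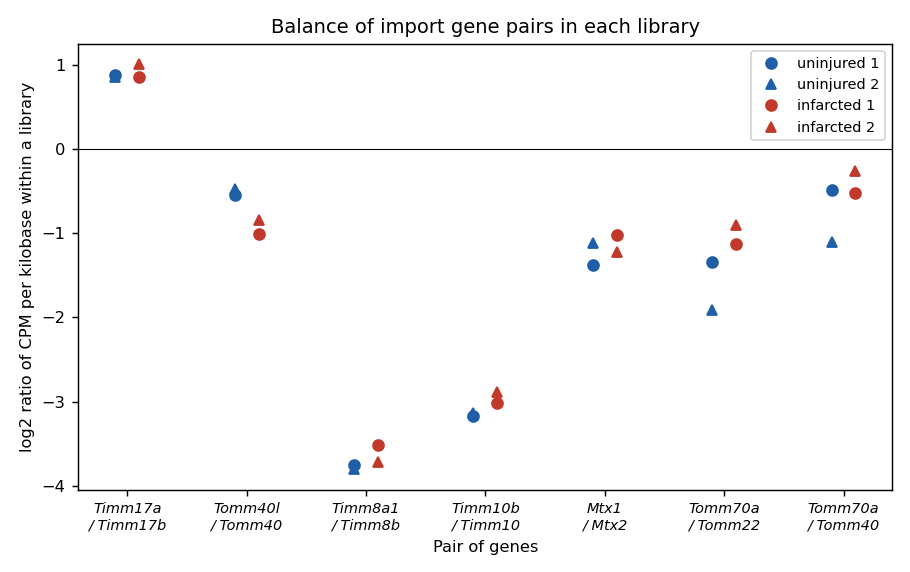
Log2 ratio of CPM per kilobase of 7 gene pairs within each library, blue for uninjured and red for infarcted, circles for replicate 1 and triangles for replicate 2. The Tomm40l to Tomm40 ratio is lower in both infarcted libraries by 0.42 on average, whereas Timm17a to Timm17b hardly moves.

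Short transcripts were lower in infarcted hearts across the whole table, so members were set beside genes of like length. Over all genes the median log2 fold change went from -0.63 for transcripts up to 700 nt to -0.44 above that up to 1500 nt, -0.15 up to 3000 nt, 0.10 up to 6000 nt and 0.27 above 6000 nt. The uninjured libraries also differed by length. Their median log2 ratio, replicate 2 over replicate 1, was 0.45, 0.36, 0.16, -0.03 and -0.22, shortest class first. For infarcted replicate 1 over replicate 2 the class medians ran from -0.04 to 0.02. The share of uninjured replicate 2 in the trend on length was not tested. Import genes had median log2 fold changes of -0.76, -0.80, -0.65, -0.66 and -0.56 in these classes, over 2, 6, 12, 7 and 1 genes. Below the median of their own class lay 27 of the 28, with a median difference of -0.50. Timm10 was the exception. With the trend on length removed 21 were again called lower (22.4% of all genes), with a median of -0.59 beside -0.16 over all genes. Timm8a1, Timm8b and Timm10 then dropped out, and Timm9, Timm10b and Tomm40 came in. Over the 28 genes the fold change and the log2 length had a Pearson r of 0.46 and a Spearman rho of 0.32, a description over genes of the same 4 libraries.

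**Figure D4:**
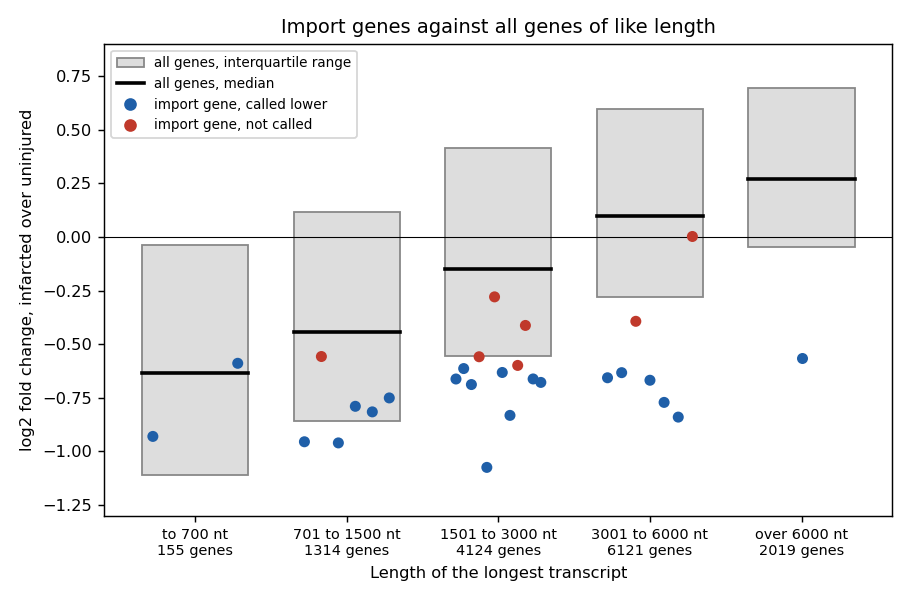
Log2 fold change of each import gene (blue called lower, red not called) in 5 classes of transcript length, with the interquartile range (grey box) and median (black line) of all genes in that class. Import genes lie below the class median everywhere but Timm10, the rightmost point of the shortest class.

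Of the other genes of the import pathway, taken from lists by function, 21 of 36 were lower and 0 higher, against 14.6% and 18.3% of all genes, with a median of -0.63. The other 15 did not pass, with log2 fold changes from -0.57 to 0.25 (Parl and Xpnpep3, named for being the ends of that range). Without uninjured replicate 2 edgeR called 0 of the 36. In the motor and TIM23 group 4 of 5 were lower, among them Romo1, an inner membrane protein linked to TIM23 (-1.16 ± 0.23, adjusted p = 0.00229), and the J-protein genes Dnajc15 (-0.94) and Dnajc19 (-0.89). Of the oxidative import genes, Aifm1 fell by 0.62 and Chchd4, the oxidoreductase of the intermembrane space, had -0.56 (adjusted p = 0.0519). Processing peptidases were lower in 4 of 7 cases, led by the inner membrane peptidase genes Immp1l (-1.18) and Immp2l (-1.04) and by Mipep (-0.92). In membrane insertion and matrix folding 4 of 5 were lower, including Hspe1 (-0.94), Hspd1 (-0.76) and Oxa1l (-0.74). Only 1 of 4 genes of outer membrane insertion passed, Mtch2 (-0.80), while Mtx3 and Dnajc11 had -0.21 and -0.20. Of 12 quality control genes 7 were lower, among them the kinase gene Pink1 (-1.20), Clpp (-1.10) and Oma1 (-0.89).

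Nuclear genes for complex I subunits had a median of -1.15, with 36 of 37 lower, and mitochondrial ribosomal protein genes one of -0.82, with 63 of 76 lower, against 14.6% of all genes. How far these counts depend on uninjured replicate 2 was not tested. The median log2 difference of that library from uninjured replicate 1 was 0.61 for complex I subunits, beside 0.37 for the import genes. The import genes, at -0.66, sat closer to 0 than either, a difference that was not tested. In whole tissue, fewer cells of a type and less RNA per cell cannot be told apart. Cardiomyocyte markers were lower in 7 of 12 cases, with a median of -0.97. Their summed level was 36705 to 41861 CPM in infarcted and 64127 to 81306 CPM in uninjured hearts. Fibroblast markers were higher in 6 of 9 cases (6667 to 8173 against 878 to 901 CPM). Macrophage markers were higher in 9 of 9 (592 to 620 against 205 to 233 CPM), while 18.3% of all genes were called higher. Of the other lists, 2 of 4 smooth muscle markers were higher (285 to 530 against 171 to 239 CPM), 0 of 7 endothelial markers were called (890 to 1030 against 826 to 830 CPM) and 1 of 5 lymphocyte markers tested was lower (1.03 to 2.78 against 4.34 to 4.63 CPM). Atrial markers, 0 of 3 tested called, summed to 295 and 2009 CPM after infarction and to 88.8 and 49.5 CPM without injury. Infarcted replicate 2 alone held high levels of Myl4 (361 CPM), Myl7 (132 CPM), Sln (34.7 CPM) and Mybphl (26.8 CPM). In every other library Myl4 was at most 2.44 CPM and the rest of these at most 0.32 CPM. Only Nppa was higher in both infarcted libraries (294 and 1456 CPM against 86.9 and 46.7 CPM). The part of these cell types in the import genes' values was not tested.

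**Figure D5:**
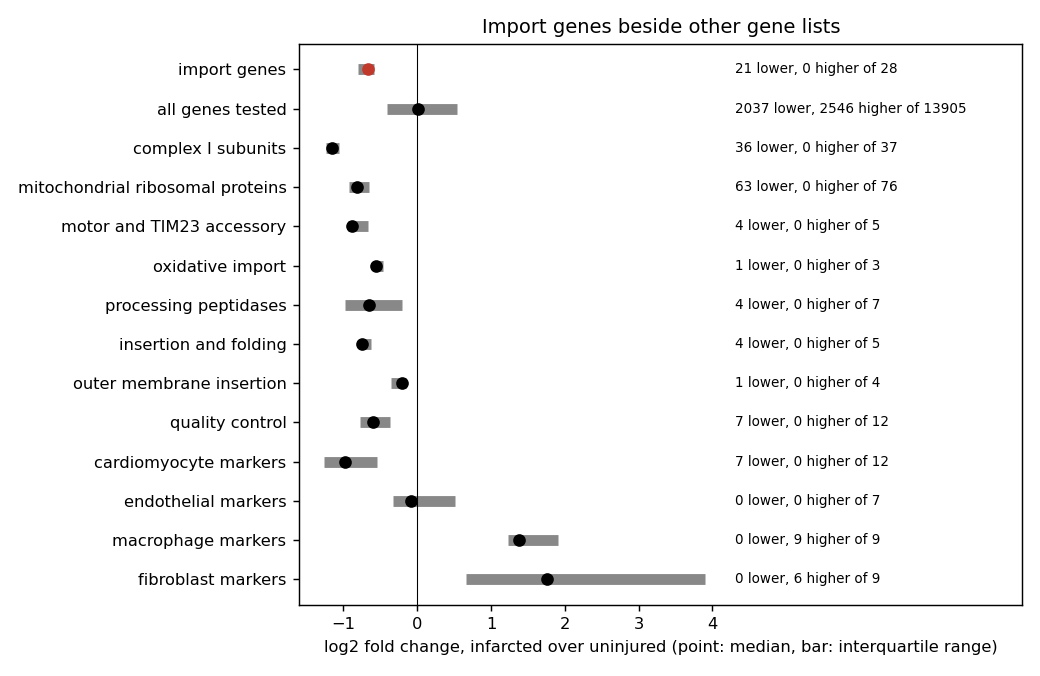
Median (point) and interquartile range (bar) of the log2 fold change, infarcted over uninjured, for the import genes (red) and other gene lists (black), with the number called in each direction. Import genes lie at -0.66, between outer membrane insertion genes at -0.20 and complex I subunits at -1.15.

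Splice forms of import genes showed no call. Reads allowed a test of 12 events in 9 genes, 7 alternative exons and 5 alternative splice sites, and 0 passed in edgeR's form-by-group test (0.0% of 5490 exons and 0.0341% of 2936 splice sites passed). At an unadjusted p below 0.05 stood 1 exon and 1 splice site, against 7.03% and 5.55% of all events, and limma on the logit called 0. A 148 nt exon of Tomm34 was included in 85.1% and 79.3% of 83 and 50 reads after infarction and in 92.8% and 98.4% of 77 and 118 reads without injury. Its 95% Wilson intervals were 76.4 to 91.5%, 67.0 to 88.8%, 84.0 to 96.4% and 94.0 to 99.5%, and its adjusted p was 0.692. A splice site of Mtx2 that shifts the junction by 3 nt was used in 0 of 76 and 0 of 68 reads in the infarcted libraries, which allows a share of up to 3.95% and 4.41%. In the uninjured libraries it was used in 4.35% and 2.11% of 115 and 190 reads (95% Wilson intervals 1.87 to 9.78% and 0.82 to 5.29%, adjusted p = 0.864). The intervals cover counting error only. Exons of Tomm5 (50 nt) and Timm22 (197 nt) followed with adjusted p of 0.753 and 0.765.

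Strand may limit some members: 13 of the 28 overlap an exon of a gene on the other strand. Whether the reads of that gene were kept apart is not known, as the strand setting is not given. Of these 13, Pam16, Timm8b, Tomm40l and Tomm70a among them, 7 were lower with a median of -0.63. Of the 15 without such an overlap 14 were lower, with a median of -0.68.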

How the data were processed

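Poly-A RNA of 4 mouse hearts was sequenced as single-end reads of 50 bp, per the labels' protocols. The authors deposited raw counts per Ensembl gene and, for splicing events on mm9 (per the submitters' processing notes), percent inclusion with corrected reads of each form, which were rounded to whole numbers here. Aligner, counter and strand setting: not given in the sources used here. Symbols and transcript lengths came from GENCODE M21 by Ensembl identifier (20450 of 21552 genes matched).

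Counts were tested in edgeR 4.0.16 (R 4.3.3; TMM, filterByExpr by group, robust quasi-likelihood F-test, Benjamini-Hochberg over 13905 genes), checked on simulated data. CPM use TMM library sizes. Residual degrees of freedom were 2, and the common biological coefficient of variation was 19.3%. P-values measure the spread between these mice, with the estimate for each gene drawn toward that of all genes. Splicing events needed 10 reads in every library and 5 of either form in all. The percent equalled inclusion over all reads within 0.05 points in 99.98% of values, and 1 form was kept of each event with 2 sites, a choice made after seeing the data. Near-identical copies share at least 95% identity over 250 nt. DESeq2 1.42.0, limma-voom (limma 3.58.1) and other settings were alternatives. The members, lists and tests were chosen with earlier results of these data known. Values per library are given for the 10 called genes with the smallest adjusted p and for any gene above 0, up to 3 genes are named per pathway list, and other members by their fold change.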

Additional observations from a re-analysis of the deposited data

How the results depend on the processing

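The count of import genes called lower, 21, stayed within 1.5 times under other size factors, both filters, DESeq2 (21), limma-voom (19, without Timm10 and Timm50), removal of mitochondrially encoded genes and removal of the trend on length, where 3 of the 21 lost their call and 3 others gained one. No setting called an import gene higher. On library totals 4 import genes (Pam16, Timm8b, Tomm5 and Tomm7) and 7 of the 36 other pathway genes were lower, 786 genes were lower and 4386 higher over the whole table, and the import median was -0.32. The median of all genes then moved to 0.36, which left import genes at -0.68 relative to it, as on the TMM scale, and Tomm34 and Tomm70a above 0. Genes called lower made up 44.4% of all calls on the TMM scale, 15.2% on library totals and 60.3% with the trend on length removed, where 3111 genes were lower and 2047 higher. Calls lower also outnumbered calls higher without uninjured replicate 1 (1824 against 1691). Leaving out each library in turn in edgeR gave 8 to 1824 genes lower and 102 to 2144 higher, 0 to 21 import genes lower, 0 to 23 other pathway genes lower and import medians of -0.83 to -0.48, with the lowest counts without uninjured replicate 2. In DESeq2, without infarcted replicate 1, infarcted replicate 2 and uninjured replicate 2 in turn, 1170, 851 and 602 genes were lower, 1360, 1303 and 1157 higher, and 11, 4 and 1 import genes and 16, 7 and 6 other pathway genes lower. Without uninjured replicate 1 it called 20 import genes. A lone library in a group is assumed to vary like the other group. Libraries with the same replicate number hardly deviated together (r = 0.08 between the differences of replicates 1 and 2 across genes). The labels do not say whether the numbers pair the mice, and this correlation cannot decide it. With the replicate number as a block 23 import genes, 2340 genes lower and 2950 higher were called, and 0 splicing events of import genes. With 2 mice a group and few reads per event, small shifts in splicing were not detectable.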
